A study of Mus musculus with 24 samples.

Results

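Cited2 and 9 further genes of the hypoxia-inducible factor (HIF) pathway were described in the tibialis anterior (TA) muscle of mice given photobiomodulation therapy (PBMT). The 10 genes were Cited2, Cited4, Hif1a, Epas1, Hif3a, Egln1, Egln3, Vhl, Ankrd37 and Bnip3, out of 55487 gene identifiers counted. They were selected on the values of Cited2 in the comparison of PBMT with control in sedentary muscle, where it was called, and the other 9 were added by name. The values of all 10 genes in that comparison are therefore a description and were not tested. The question was whether genes switched on by HIF moved opposite to Cited2, an inhibitor of HIF.

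All 24 mice were wild-type C57BL/6J males aged 5 to 7 weeks, with 6 in each of 4 groups. Each mouse had its hair removed and was anesthetized for 20 min. PBMT mice received 830 nm LED light in that time, at 25 mW/cm2 and 30 J/cm2, and control mice received none. No group had an inactive lamp, or warming without light. The left TA was taken 24 h after the procedure, from mice that had not run (sedentary) or had just run on a treadmill to exhaustion (fatigued). Mice that ran had been acclimatized to the treadmill, which had an electric shock grid. Whether sedentary mice were acclimatized is not stated. The length of each run is not given for single mice, so in fatigued muscle PBMT and the length of the run cannot be told apart. Each exercise state was its own sequencing project, so state and project cannot be told apart.

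Poly(A) RNA was sequenced. Total counts per mouse were 43271093 to 46904076 in sedentary controls, 46327516 to 52775844 in sedentary PBMT mice, 56792327 to 68726155 in fatigued controls and 53122528 to 68566029 in fatigued PBMT mice. Totals were higher with PBMT in sedentary muscle by 0.13 on the log2 scale (exact permutation test, two-sided p = 0.00433), and differed by -0.06 in fatigued muscle (exact permutation test, two-sided p = 0.357). The part of this difference in depth in the results was not tested. Levels are in CPM, counts scaled by the normalized library total of each mouse.

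Markers of fast muscle were abundant, with Myh4 at 26172 ± 8671 CPM in sedentary controls (SD, n = 6), and the slow fiber gene Myh7 was at 2.13 ± 1.47 CPM (SD, n = 6). Sedentary control replicate 4 lay far from its group, with a root mean square log2 distance from the group mean of 0.501, against 0.304 to 0.339 in the other 5 mice. Fatigued PBMT replicate 5 was at 0.509, against 0.316 to 0.407 in the other 5.

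HIF joins an oxygen-regulated alpha subunit, encoded by Hif1a, Epas1 or Hif3a, to a stable partner, Arnt. In the presence of oxygen, prolyl hydroxylases (Egln1, Egln3) mark the alpha subunit and the Vhl ubiquitin ligase directs it to degradation, a step at the protein that RNA counts do not read. Cited2 and Cited4 bind the coactivators Crebbp and Ep300 in place of the alpha subunit, and HIF targets in muscle include genes of glycolysis, vessel growth and mitophagy.

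Cited2 was at 26.3 to 36.8 CPM (median 31.9 CPM) in sedentary controls and 41.5 to 58.1 CPM (median 52.4 CPM) in sedentary PBMT mice. Each of the 6 sedentary PBMT mice lay above each of the 6 sedentary controls, the pattern that led to its choice. In fatigued muscle it was at 22.2 to 40.6 CPM (median 27.7 CPM) in controls and 20.99 to 44.1 CPM (median 33.1 CPM) with PBMT. The fatigued groups overlapped with each other and with the sedentary controls, and 5 of the 6 fatigued PBMT mice lay below every sedentary PBMT mouse.

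Cited2 averaged 32.2 ± 3.92 CPM in sedentary controls (SD, n = 6) and 50.5 ± 7.08 CPM in sedentary PBMT mice (SD, n = 6). Its log2 fold change, with standard error (SE), was 0.66 (SE 0.0989, not tested), and it lay between 0.61 and 0.70 over the alternative settings. Without sedentary control replicate 4 it was 0.69. Cited2 was 1 of 4 genes called by edgeR among 14177 tested (0.0282%, and 2 to 20 genes with 1 mouse left out), and 1 of the 10 genes, Cited2, had groups that did not overlap, against 0.48% of genes tested. Nothing is read from these counts, since this comparison chose the gene.

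In fatigued muscle, which holds other mice, Cited2 averaged 28.6 ± 6.75 CPM without PBMT (SD, n = 6) and 32.0 ± 9.18 CPM with it (SD, n = 6). The log2 fold change was 0.16 (SE 0.198, edgeR adjusted p = 1.0), with a 95% interval of -0.23 to 0.55, and did not pass the test. The highest values came from fatigued control replicate 6, at 40.6 CPM, and fatigued PBMT replicate 5, at 44.1 CPM. The PBMT effect in fatigued muscle minus that in sedentary muscle was -0.49 (SE 0.229, not tested). Fatigued against sedentary muscle gave -0.17 (SE 0.162, not tested) in controls and -0.66 (SE 0.162, not tested) in PBMT mice. These last 3 values use mice that chose the gene.

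**Figure D1:**
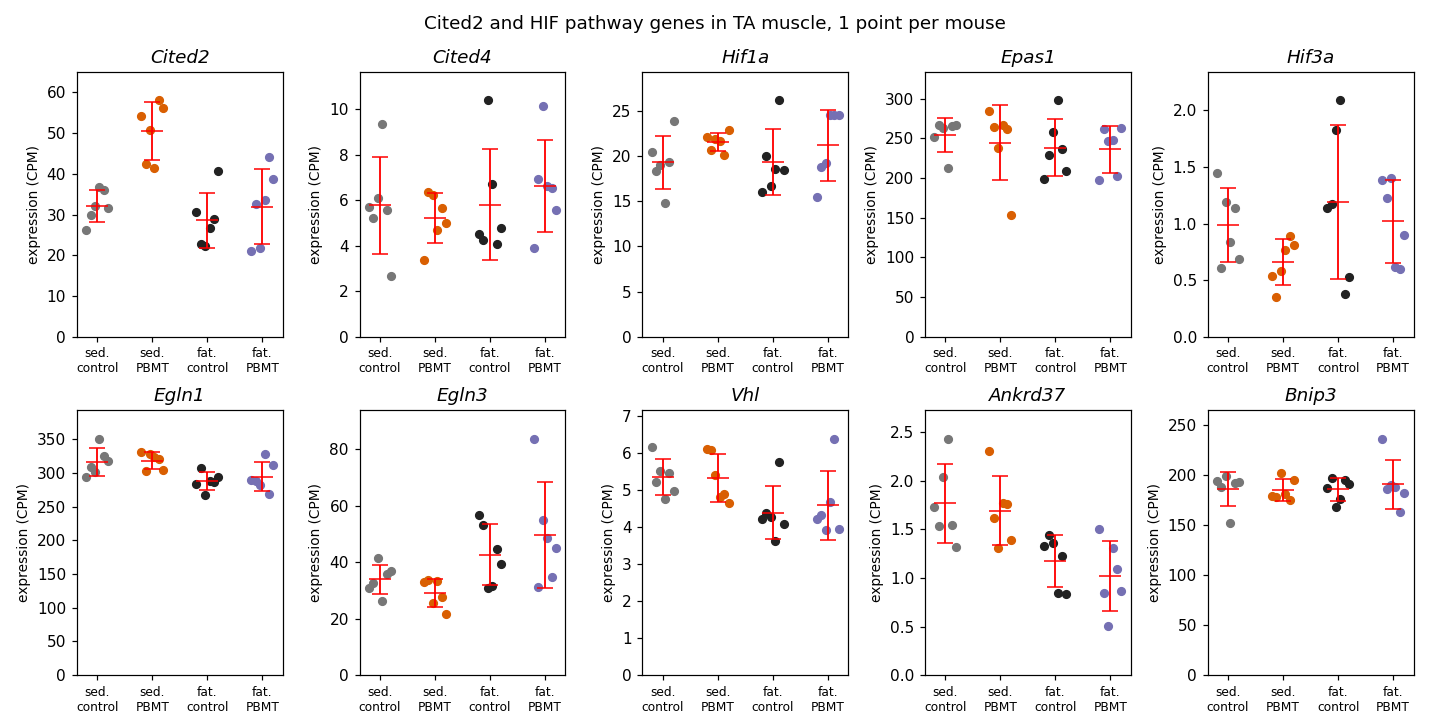
Expression of the 10 genes in CPM on the y axis, with 1 point for each of 24 mice in 4 groups on the x axis. Red marks are the mean and SD of 6 mice. Sedentary PBMT mice lie above sedentary controls in Cited2 without overlap, and PBMT and control mice overlap in each of the other 9 genes.

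Cited4, a second inhibitor of the family, was at 2.67 to 9.35 CPM (median 5.65 CPM) in sedentary controls and 3.37 to 6.35 CPM (median 5.34 CPM) in sedentary PBMT mice. In fatigued muscle it was at 4.09 to 10.4 CPM (median 4.66 CPM) in controls and 3.92 to 10.1 CPM (median 6.59 CPM) with PBMT. All 4 groups overlapped. PBMT differed from control by -0.14 (SE 0.218, not tested) in sedentary and 0.19 (SE 0.257, edgeR adjusted p = 1.0) in fatigued muscle.

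Of the alpha subunits, Epas1 was the most abundant per length. In sedentary controls it was at 45.5 ± 3.81 CPM per kb of exon (SD, n = 6), Hif1a at 3.28 ± 0.498 CPM per kb (SD, n = 6) and Hif3a at 0.147 ± 0.0489 CPM per kb (SD, n = 6). With PBMT in sedentary muscle Hif1a differed by 0.16 (SE 0.0940, not tested) and Epas1 by -0.05 (SE 0.120, not tested). The groups overlapped in both, and Epas1 was low in 2 single mice, at 213 CPM in sedentary control replicate 4 and 153 CPM in sedentary PBMT replicate 6. In fatigued muscle Hif1a differed by 0.13 (SE 0.137, edgeR adjusted p = 1.0) and Epas1 by -0.01 (SE 0.103, edgeR adjusted p = 1.0).

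Hif3a, whose short forms can act against the other alpha subunits, had 17 to 124 counts per mouse. It was at 0.609 to 1.45 CPM (median 0.987 CPM) in sedentary controls and 0.347 to 0.890 CPM (median 0.674 CPM) in sedentary PBMT mice. The groups overlapped, with 3 of the 6 PBMT mice below every control, and the log2 fold change was -0.58 (SE 0.270, not tested). In fatigued muscle it was -0.22 (SE 0.387, edgeR adjusted p = 1.0), and 0.01 without fatigued control replicate 4.

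Egln1, the main hydroxylase acting on HIF, averaged 288 to 318 CPM over the 4 groups. Its log2 fold change with PBMT was 0.02 (SE 0.0604, not tested) in sedentary and 0.03 (SE 0.0586, edgeR adjusted p = 1.0) in fatigued muscle. Vhl, the substrate-binding subunit of the ligase, averaged 4.40 to 5.35 CPM, with log2 fold changes of -0.0004 (SE 0.105, not tested) and 0.06 (SE 0.142, edgeR adjusted p = 1.0). Its highest values in fatigued muscle were in replicate 5 of both groups, 5.77 CPM in controls and 6.40 CPM with PBMT.

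Egln3, a hydroxylase gene that HIF also switches on, was at 26.4 to 41.3 CPM (median 34.1 CPM) in sedentary controls and 21.5 to 33.6 CPM (median 30.2 CPM) in sedentary PBMT mice. In fatigued muscle it was at 30.8 to 56.6 CPM (median 41.9 CPM) in controls and 31.3 to 83.8 CPM (median 46.8 CPM) with PBMT. PBMT and control mice overlapped in both states, and the highest value came from fatigued PBMT replicate 1. The log2 fold change with PBMT was -0.22 (SE 0.122, not tested) in sedentary muscle, opposite in sign to Cited2, and 0.22 (SE 0.237, edgeR adjusted p = 1.0) in fatigued muscle. Without fatigued PBMT replicate 1 the latter was 0.01.

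Ankrd37, an ankyrin repeat gene and direct HIF target, was at 1.32 to 2.44 CPM (median 1.64 CPM) in sedentary controls and 1.31 to 2.30 CPM (median 1.69 CPM) in sedentary PBMT mice. In fatigued muscle it was at 0.831 to 1.45 CPM (median 1.28 CPM) in controls and 0.502 to 1.502 CPM (median 0.978 CPM) with PBMT. PBMT and control mice overlapped in both states, with log2 fold changes of -0.06 (SE 0.180, not tested) and -0.20 (SE 0.252, edgeR adjusted p = 1.0). Bnip3, a mitophagy receptor and HIF target, averaged 185 to 191 CPM over the 4 groups. Its log2 fold changes were -0.01 (SE 0.0751, not tested) and 0.04 (SE 0.0789, edgeR adjusted p = 1.0).

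Exons of Ankrd37 share 22.7% of their length with Lrp2bp and 3.7% with Ufsp2, both on the opposite strand. Over all mice Lrp2bp held 14634 counts and Ufsp2 45570, against 1786 for Ankrd37. For Bnip3, 22.2% is shared with the antisense gene Gm45507, which held 133 counts against 242256. The strand setting of the counting is not given, so reads of overlapping genes cannot be told apart here.

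Per length, the order in sedentary controls was Egln1, Bnip3, Epas1, Cited2, Egln3, Cited4, Hif1a, Vhl, Ankrd37 and Hif3a, from 88.0 to 0.147 CPM per kb. Ranges over mice overlapped between Egln1 and Bnip3, Cited2 and Egln3, and Cited4 and Hif1a. In sedentary PBMT mice Cited2 was at 20.5 ± 2.88 CPM per kb (SD, n = 6) and Egln3 at 10.9 ± 1.89 CPM per kb (SD, n = 6), without overlap. In both fatigued groups Egln3 came before Cited2, with overlap.

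PBMT against control in fatigued muscle called 0 of the 10 genes and 0 of 14574 genes in edgeR (0%). At an unadjusted p under 0.05 there were 0 of the 10 and 230 of all genes, and DESeq2 called 0 and 2. The groups did not overlap in 0 of the 10, against 0.0274% of all genes. By sign 7 of the 10 were higher and 3 lower. Their median difference on the log2 scale was 0.05, and that of all genes 0.0041.

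HIF targets were followed in 3 textbook lists with 62 genes, beside 14 further genes of the HIF machinery. In sedentary muscle 59 targets were tested, and by sign 33 were lower and 26 higher with PBMT. Their median log2 fold change was -0.03, against -0.0019 over all genes, of which 7150 were lower and 7027 higher. edgeR called 0 of the 73 target and machinery genes (8 at an unadjusted p under 0.05, 1 in DESeq2), beside 1082 and 62 of 14177 genes tested by the latter 2 counts.

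Bhlhe40, a transcriptional repressor gene of the clock and of hypoxia, was at 88.7 to 119.9 CPM (median 107 CPM) in sedentary controls and 120.3 to 159 CPM (median 144 CPM) in sedentary PBMT mice. All 6 PBMT mice lay above all 6 controls, by a narrow margin, and on the same side as Cited2. The log2 fold change was 0.44 (SE 0.0854, edgeR adjusted p = 0.0896). It passed in 3 of 17 alternatives, with DESeq2, with no filter, and without sedentary PBMT replicate 5 (0.48, adjusted p = 0.0316), and adjusted p over the alternatives was 0.00143 to 0.586.

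In the other lists the smallest p belonged to Pfkfb3, an activator of glycolytic flux, Edn1, which encodes endothelin 1, and Siah1a, a ubiquitin ligase gene. With PBMT in sedentary muscle Pfkfb3 differed by 0.59 (SE 0.188, edgeR adjusted p = 0.460) and Edn1 by 0.67 (SE 0.237, edgeR adjusted p = 0.552), both on the side of Cited2. Siah1a differed by -0.30 (SE 0.102, edgeR adjusted p = 0.493). The groups overlapped in all 3, and none passed the test.

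The most abundant genes of the lists per length were Aldoa, Gapdh, Ldha, Tpi1 and Pkm, all glycolytic, at 6143, 2069.5, 869, 799 and 692 CPM per kb over the 4 groups. Of the 20 glucose metabolism genes tested in sedentary muscle, 13 were lower and 7 higher by sign with PBMT, and the median difference was -0.06 on the log2 scale. In vessels and oxygen supply 8 of 15 were higher, and in stress, matrix and mitochondria 11 of 24. Epo had 0 counts in every mouse, Car12 had at most 11 in a mouse, and Aldoc was tested in fatigued muscle alone.

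In fatigued muscle 35 of 60 targets were higher and 25 lower by sign with PBMT. Their median difference on the log2 scale was 0.02, and that of all genes 0.0041. edgeR called 0 of 74 target and machinery genes (3 at an unadjusted p under 0.05, 0 in DESeq2), beside 230 and 2 of 14574 genes tested by the latter 2 counts. The smallest p of each list belonged to Pfkfb4, Edn1, Bhlhe40 and Siah2, with log2 fold changes of 0.28, 0.43, 0.51 and 0.10 (edgeR adjusted p = 1.0 each).

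The test of whether the PBMT effect differed between states called 1 of 15108 genes (0.00662%), the repressor gene Nfil3, and 0 of 73 target and machinery genes in edgeR (4 at an unadjusted p under 0.05, 0 in DESeq2). Of all genes 665 were at an unadjusted p under 0.05, and DESeq2 called 3. Siah1a, Pfkfb4, Hmox1 and Fam162a had the smallest p of their lists. Their PBMT effects differed between states by 0.36, 0.49, 0.68 and 0.19 on the log2 scale (edgeR adjusted p = 0.946, 0.621, 0.946 and 0.946).

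Macrophage markers were lower by sign in sedentary PBMT mice. The sum of 8 markers, led by Lyz2, was 54.0 to 138 CPM (median 79.3 CPM) in sedentary controls and 39.3 to 76.1 CPM (median 50.7 CPM) with PBMT, with overlap. The log2 ratio of the sums was -0.65 (exact permutation test, two-sided p = 0.0455, adjusted p = 0.818 over 18 tests). All 8 markers were lower by sign and edgeR called 0 (5 at an unadjusted p under 0.05, 2 in DESeq2). Of 14177 genes tested edgeR called 4 (0.0282%), with 1082 and 62 by the latter 2 counts. Both directions are in these counts of all genes. The part of macrophage markers in the values of Cited2 was not tested. In bulk tissue fewer cells of a type and less RNA per cell cannot be told apart.

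Other marker sums differed with PBMT in sedentary muscle by log2 ratios of 0.05 (myofiber), -0.06 (slow fiber), -0.01 (endothelial), -0.24 (fibroblast), -0.05 (erythroid), -0.07 (adipocyte) and 1.41 (keratinocyte). In fatigued muscle the ratios of these sums and of the macrophage sum ran from -0.40 to 0.33. None of these sums passed the exact permutation test after adjustment. Their most abundant genes were Myh4, Myl3, Ptprb, Col3a1, Hbb-bs, Cfd and Krt10. Every marker of these lists had counts, and 4 of 5 keratinocyte markers were under 1 CPM. The keratinocyte sum was 27.9 CPM in sedentary PBMT replicate 4, against 1.61 to 9.79 CPM in the other 5, and without that mouse the ratio was 0.34.

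Of 14 immediate early genes, which respond within minutes to a stimulus, edgeR called 1 with PBMT in sedentary muscle, Egr1 (4 at an unadjusted p under 0.05, 2 in DESeq2), against 4 of 14177 genes tested (0.0282%, with 1082 and 62). In fatigued muscle it called 0 (0 at an unadjusted p under 0.05, 0 in DESeq2), against 0 of 14574 (0%, with 230 and 2). Fatigued against sedentary muscle had 8 higher and 1 lower in controls, against 9.1% and 9.49% of all genes, and the same numbers in PBMT mice, against 14.1% and 12.7%.

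Fatigued and sedentary muscle differed in many genes. In controls 9.1% of 15108 genes were higher and 9.49% lower in fatigued muscle, and edgeR called 0 of the 9 genes other than Cited2 (3 at an unadjusted p under 0.05, 1 in DESeq2), beside 4861 and 3181 of all genes by the latter 2 counts. In PBMT mice 14.1% were higher and 12.7% lower, and 2 of the 9 were called, Egln3 higher and Ankrd37 lower. The groups did not overlap in 0 of the 10 genes in either comparison, against 7.7% and 11.2% of all genes. The run, the treadmill conditions around it and the sequencing project cannot be told apart. Both comparisons share sedentary mice with the one that chose Cited2.

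Egln3 was higher in fatigued than in sedentary PBMT mice by 0.78 (SE 0.198, edgeR adjusted p = 0.00552), with 5 of the 6 fatigued mice above every sedentary mouse. It passed in 29 of 29 alternatives, and was 0.57 without fatigued PBMT replicate 1 and 0.86 without replicate 5. In controls the difference was 0.33 (SE 0.197, edgeR adjusted p = 0.255). In PBMT mice its sign was opposite to that of Cited2. The Cited2 value there uses sedentary PBMT mice that chose the gene, so nothing is read from the signs. The PBMT effect on Egln3 in fatigued muscle minus that in sedentary muscle was 0.44 (SE 0.278, 95% interval -0.10 to 0.99). In that difference, which uses the mice that chose Cited2, edgeR called 0 of the 9 genes other than Cited2 (0 at an unadjusted p under 0.05, 0 in DESeq2), against 1 of 15108 genes (665 and 3).

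Ankrd37 was lower in fatigued than in sedentary PBMT mice, at -0.73 (SE 0.221, edgeR adjusted p = 0.0151). Its side was that of Cited2, whose value there uses mice that chose Cited2, so nothing is read from the shared side. In Ankrd37 4 of the 6 fatigued mice lay below every sedentary mouse. It passed in 28 of 29 alternatives and failed without sedentary PBMT replicate 1 (-0.62, adjusted p = 0.0514), with adjusted p of 0.00575 to 0.0514 over them. In controls it was at -0.59 (SE 0.219, edgeR adjusted p = 0.0597) and passed in 3 of 29 alternatives, with DESeq2 (-0.59, adjusted p = 0.0388), without fatigued PBMT replicate 3 (-0.58, adjusted p = 0.0401) and without sedentary control replicate 6 (-0.66, adjusted p = 0.0479). The highest adjusted p there was 0.142.

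The other 7 genes did not pass in either comparison. Vhl was at -0.28 (SE 0.123, edgeR adjusted p = 0.109) in controls and -0.22 (SE 0.123, edgeR adjusted p = 0.199) in PBMT mice. It passed without fatigued control replicate 5 in the former (-0.38, adjusted p = 0.0319, highest over alternatives 0.236) and without fatigued PBMT replicate 5 in the latter (-0.34, adjusted p = 0.0298, highest 0.371). Egln1 was at -0.13 and -0.11, Hif3a at 0.27 and 0.63 and Cited4 at 0.01 and 0.34. Epas1 was at -0.10 and -0.05, Hif1a at -0.00064 and -0.03 and Bnip3 at -0.01 and 0.05.

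In controls 18 of 59 HIF targets were called higher and 8 lower in fatigued muscle, against 9.1% and 9.49% of all genes. In PBMT mice 22 were called higher and 8 lower, against 14.1% and 12.7%. Their median log2 fold change was 0.10 and 0.09, against -0.01 and 0.0021 over all genes. Of the 14 machinery genes, 2 were higher and 1 lower in controls, and 1 higher and 1 lower in PBMT mice.

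In glucose metabolism 6 of 20 genes were called higher and 2 lower in controls, against 9.1% and 9.49% of all genes. In PBMT mice 8 were called higher and 3 lower, against 14.1% and 12.7%. Hk2, a hexokinase of muscle, was at 363 to 703 CPM (median 428 CPM) in sedentary and 598 to 1095 CPM (median 855 CPM) in fatigued controls. In controls 5 of the 6 fatigued mice lay above every sedentary mouse, and the log2 fold changes were 0.90 (SE 0.199, edgeR adjusted p = 0.00274) in controls and 1.26 (SE 0.200, edgeR adjusted p = 6.83e-05) in PBMT mice. Pfkp, Hk1, the glucose transporter gene Slc2a1 and Eno1 were higher in controls by 0.89, 0.72, 0.54 and 0.45. In PBMT mice Pfkp was higher by 1.02, Slc2a1 by 0.99, Hk1 by 0.85 and Pfkfb4 by 0.73. By sign 8 of 10 myofiber markers were also higher, and 2 lower, in each comparison. Their sum was 126282 ± 17708 CPM in sedentary and 163628 ± 12805 CPM in fatigued controls (SD, n = 6 each), a log2 ratio of 0.37, and 130334 ± 9214 CPM and 161185 ± 14197 CPM in PBMT mice (SD, n = 6 each), a ratio of 0.31. Beside the same shares of all genes, edgeR called 4 of 10 myofiber markers higher and 0 lower in controls, and 3 and 0 in PBMT mice. Their part in the result was not tested.

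Pfkfb3 had the lowest log2 fold change of the targets in both comparisons. Its median was 261 CPM in sedentary and 69.1 CPM in fatigued controls, and 417 and 92.8 CPM in PBMT mice. Fatigued and sedentary mice did not overlap, with -1.86 (SE 0.224, edgeR adjusted p = 7.37e-06) and -2.04 (SE 0.225, edgeR adjusted p = 9.27e-07). The glycogen branching enzyme gene Gbe1 was at -0.52 and -0.51. Pdk1, a kinase that holds back pyruvate oxidation, was at -0.22 (SE 0.0764, edgeR adjusted p = 0.0326) in PBMT mice and passed in 17 of 29 alternatives (highest adjusted p = 0.0960, without sedentary PBMT replicate 1, -0.20).

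In vessels and oxygen supply 7 of 15 genes were called higher in controls and 8 in PBMT mice, and 0 lower. Of all genes 9.1% were called higher and 9.49% lower in controls, and 14.1% and 12.7% in PBMT mice. Hmox1, a heme-degrading enzyme gene, had a median of 5.09 CPM in sedentary and 13.2 CPM in fatigued controls, and 4.57 and 20.1 CPM in PBMT mice. There was no overlap in either comparison, with 1.47 (SE 0.240, edgeR adjusted p = 1.67e-04) and 2.15 (SE 0.243, edgeR adjusted p = 1.01e-06). Edn1 was higher by 1.66 and 1.43, Angptl4, an inhibitor of lipoprotein lipase, by 1.65 and 1.57, and Pdgfb by 0.54 and 0.68. Adm, which encodes a vasodilator peptide, was higher by 0.58 and 0.57. Endothelial, macrophage and adipocyte marker sums were also higher by sign. The endothelial sum was 431 ± 27.0 CPM in sedentary and 506 ± 65.1 CPM in fatigued controls (SD, n = 6 each), a log2 ratio of 0.23, and 427 ± 74.1 CPM and 516 ± 34.4 CPM in PBMT mice (SD, n = 6 each), a ratio of 0.27. Of 10 endothelial markers edgeR called 3 higher and 0 lower in controls, against 9.1% and 9.49% of all genes. It called 4 higher and 1 lower in PBMT mice, against 14.1% and 12.7%. Ratios of the macrophage sum were 0.32 in controls and 1.05 in PBMT mice. In controls the highest macrophage sums were 138 CPM in sedentary replicate 1 and 148 CPM in fatigued replicate 5. Their part in the ratio was not tested. The adipocyte sum was 23.6 ± 6.97 CPM in sedentary and 37.0 ± 26.9 CPM in fatigued controls (SD, n = 6 each), a ratio of 0.65, and 22.5 ± 14.1 CPM and 46.2 ± 35.7 CPM in PBMT mice (SD, n = 6 each), a ratio of 1.04. The highest adipocyte sums were 76.5 CPM in fatigued control replicate 6 and 107 CPM in fatigued PBMT replicate 5. The part of these mice in the ratios was not tested. Of 5 adipocyte markers edgeR called 0 in controls (1 at an unadjusted p under 0.05, 0 in DESeq2) and 1 in PBMT mice, higher. Of 15108 genes in controls, 4861 were at an unadjusted p under 0.05, and DESeq2 called 3181. The part of endothelial cells, macrophages and adipocytes in the result was not tested.

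Pdgfb in controls passed in 26 of 29 alternatives (highest adjusted p = 0.0602, without fatigued control replicate 5, 0.42), and also failed without sedentary control replicate 5 (0.50) or 6 (0.48). Adm passed in 20 of 29 in controls (highest 0.103, without fatigued control replicate 1, 0.50), failing also without fatigued control replicate 2, 5 or 6 or sedentary control replicate 2, 4, 5 or 6 (0.51 to 0.60). It passed in 24 of 29 in PBMT mice (highest 0.153, without fatigued PBMT replicate 5, 0.35), failing there also with 12 mice in the fit (0.57, adjusted p = 0.0579) and without sedentary PBMT replicate 5 (0.46) or 6 (0.56).

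In stress, matrix and mitochondria 5 of 24 genes were called higher and 6 lower in controls, against 9.1% and 9.49% of all genes. In PBMT mice 6 were called higher and 5 lower, against 14.1% and 12.7%. Lox was higher by 0.93 and 1.11, Plod2 by 0.64 and 0.97, P4ha2 by 0.57 and 0.72 and P4ha1 by 0.53 and 0.47. Plod1 was higher by 0.37 in controls and Loxl2 by 0.79 in PBMT mice. Plod2 in controls passed in 15 of 29 alternatives (highest adjusted p = 0.107, without fatigued control replicate 3, 0.55).

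By sign 5 of 6 fibroblast markers were higher in controls and 6 of 6 in PBMT mice. Their sum was 825 ± 145 CPM in sedentary and 1229 ± 275 CPM in fatigued controls (SD, n = 6 each), and 699.9 ± 213 CPM and 1477 ± 844 CPM in PBMT mice (SD, n = 6 each). Of 6 fibroblast markers edgeR called 0 in controls (2 at an unadjusted p under 0.05, 1 in DESeq2) and 5 in PBMT mice, all higher. Of 8 macrophage markers it called 1 and 7, all higher. Of all 15108 genes 9.1% were called higher in controls and 14.1% in PBMT mice. In controls 4861 were at an unadjusted p under 0.05, and DESeq2 called 3181. Fatigued PBMT replicate 5 had the highest fibroblast sum, 3108 CPM. The part of these cells in the result was not tested.

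Among genes called lower, Bnip3l, a mitophagy receptor related to Bnip3, was at -0.31 (SE 0.0656, edgeR adjusted p = 0.00146) and -0.39 (SE 0.0656, edgeR adjusted p = 1.09e-04), and Bhlhe40 at -0.63 and -0.56. Higd1a, a mitochondrial protein gene, was at -0.25 and -0.19, passing in 27 of 29 alternatives (highest adjusted p = 0.0975, without sedentary control replicate 3, -0.18) and 7 of 29 (highest 0.127). Ddit4, an inhibitor of mTOR signaling, was at -1.66 (SE 0.527, edgeR adjusted p = 0.0327) in controls, passing in 23 of 29 (highest 0.0776, without fatigued control replicate 6, -1.51), and Ero1a, an oxidase of protein folding, at -0.38 (SE 0.119, edgeR adjusted p = 0.0261), passing in 23 of 29 (highest 0.0746, with no filter). In PBMT mice Insig2 was at -0.22 and Mxi1 at -0.21, the latter passing in 15 of 29 (highest 0.113).

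In the machinery, Crebbp, a coactivator that Cited2 binds, was higher by 0.38 (SE 0.0829, edgeR adjusted p = 0.00216) in controls and 0.28 (SE 0.0828, edgeR adjusted p = 0.0134) in PBMT mice. Eloc, a subunit of the Vhl ligase, was at -0.32 (SE 0.0843, edgeR adjusted p = 0.00937) and -0.35 (SE 0.0843, edgeR adjusted p = 0.00310). Arnt was at 0.22 (SE 0.0756, edgeR adjusted p = 0.0401) in controls, passing in 19 of 29 alternatives (highest 0.0854, without sedentary control replicate 3, 0.20). Ep300, also a coactivator that Cited2 binds, was not called in either comparison. It averaged 49.4 ± 8.02 CPM in sedentary and 53.4 ± 3.23 CPM in fatigued controls (SD, n = 6 each). In PBMT mice it averaged 58.5 ± 8.25 CPM in sedentary and 53.0 ± 9.21 CPM in fatigued muscle (SD, n = 6 each).

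**Figure D2:**
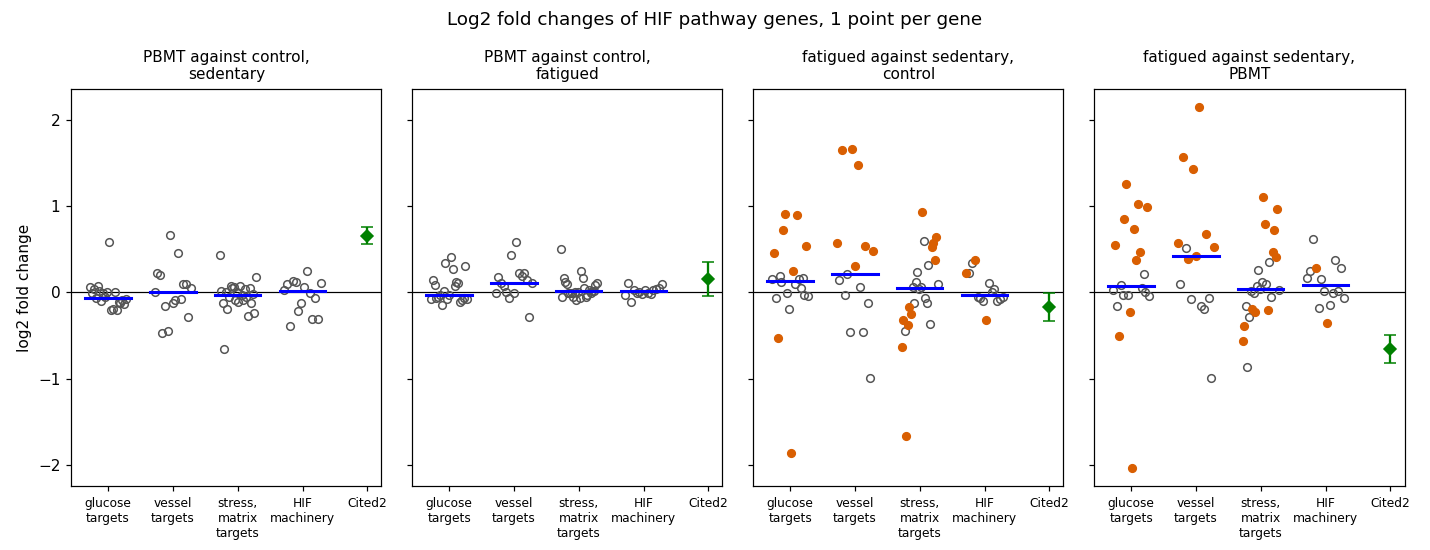
Log2 fold changes on the y axis for 3 lists of HIF targets, the HIF machinery and Cited2 on the x axis, in 4 comparisons. Each circle is a gene, filled where the edgeR adjusted p was under 0.05, blue lines are list medians, and the green diamond is Cited2 with its SE. Filled circles appear in both directions between states and in neither comparison of PBMT with control.

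Within groups, likeness to Cited2 was measured as the Pearson r of deviations from the 4 group means in log2 CPM over 24 mice, among 14020 genes and without a test. The mice share projects and differ in depth and cell content, so r is a description. Dmrt2 (0.86), Mmp28 (0.78), Galnt15 (0.77), Xdh (0.76) and Asap3 (0.74) had the highest r. Fosl2 (-0.81), Skil (-0.77), AC113961.1 (-0.77), Gm17501 (-0.77) and Lrrc8a (-0.76) had the lowest. By Spearman rho 3 of the 5 highest and 2 of the 5 lowest were shared. Not all of these r held within single groups. In sedentary controls r was -0.17 for Galnt15, 0.0080 for Asap3 and -0.20 for Lrrc8a. In sedentary PBMT mice it was 0.28 for Asap3 and -0.30 for Fosl2. Over the 4 groups Dmrt2 was at 0.83 to 0.88 and Skil at -0.87 to -0.66.

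Of the other 9 pathway genes r was positive in Hif1a (0.33), Egln1 (0.24) and Vhl (0.18). It was negative in Hif3a (-0.45), Egln3 (-0.44), Bnip3 (-0.40), Epas1 (-0.21), Cited4 (-0.09) and Ankrd37 (-0.03). Of 59 targets 34 had a negative and 25 a positive r, with a median of -0.07, against 6543 negative and 7477 positive and a median of 0.02 over all genes. The sign of r differed between the 4 groups in 8 of these 9 genes, all but Egln1. In sedentary controls, sedentary PBMT mice, fatigued controls and fatigued PBMT mice r was -0.06, -0.63, 0.14 and -0.78 for Egln3, -0.48, 0.17, 0.02 and 0.84 for Hif1a and -0.70, -0.23, -0.04 and 0.62 for Vhl, whose rho over all mice was 0.03.

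Promoter windows of 300 bases, 250 before and 50 after the transcription start, were available from RefSeq (GRCm38.p6) for 9 of the 10 genes, all but Epas1. The HIF core letters ACGTG and the related GCGTG were searched on both strands. The former was in 19.6% and the latter in 32.4% of all 32851 windows, and at least 1 of them in 43.8%. Of the 9 genes 8 had a match, and Vhl had 0. Both motifs hold the letters CG, and G and C made up 54.7% to 86% of the 9 windows. The part of this content in the matches was not tested. Cited2 is shown as the gene of the question, and Egln3 and Ankrd37 as HIF targets called in opposite directions between states in PBMT mice. Capitals mark matches.
Cited2, chr10:17722978-17723277, plus strand: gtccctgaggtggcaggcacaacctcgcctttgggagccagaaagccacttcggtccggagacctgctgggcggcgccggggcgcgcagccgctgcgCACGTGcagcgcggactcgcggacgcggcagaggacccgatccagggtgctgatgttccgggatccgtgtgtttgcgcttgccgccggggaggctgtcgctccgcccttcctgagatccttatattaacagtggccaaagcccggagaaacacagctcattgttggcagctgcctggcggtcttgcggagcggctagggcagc
Egln3, chr12:54203825-54204124, minus strand: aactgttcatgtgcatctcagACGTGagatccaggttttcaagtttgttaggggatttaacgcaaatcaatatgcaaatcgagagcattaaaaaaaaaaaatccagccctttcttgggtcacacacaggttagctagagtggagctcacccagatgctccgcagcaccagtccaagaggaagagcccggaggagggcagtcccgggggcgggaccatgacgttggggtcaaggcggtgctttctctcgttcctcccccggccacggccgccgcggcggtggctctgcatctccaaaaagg
Ankrd37, chr8:45999801-46000100, minus strand: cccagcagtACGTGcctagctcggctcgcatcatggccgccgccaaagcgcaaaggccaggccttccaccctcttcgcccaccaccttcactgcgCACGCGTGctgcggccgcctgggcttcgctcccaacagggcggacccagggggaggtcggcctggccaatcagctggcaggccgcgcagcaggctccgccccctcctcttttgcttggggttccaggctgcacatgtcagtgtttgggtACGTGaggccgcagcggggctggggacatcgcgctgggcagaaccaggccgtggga
The block in Cited2 reads ACGTG on both strands and counts as 2 overlapping matches. In Ankrd37 4 matches lie in 3 blocks, with GCGTG on both strands overlapping in 1 of them. A match describes letters and not binding. In GRCm38 Cited2 lies on chromosome 10 from 17723218 to 17725674, as 1 exon in GENCODE M21, Egln3 on chromosome 12 from 54178981 to 54203860, and Ankrd37 on chromosome 8 from 45996902 to 46005707. The Ankrd37 window ends at 46000100, inside these coordinates, so the RefSeq start it uses differs from the GENCODE start. The Hif1a window, from 73907617, also lies inside its GENCODE gene, which starts at 73901375.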

How the data were processed

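The authors deposited integer read counts for each gene, 1 library per mouse. The submitters' processing notes list Trimmomatic, STAR 2.7.1a, Picard 2.20.4, StringTie 2.0.4, featureCounts 1.6.0, HTSeq and GRCm38, without the role of each. Of 55487 Ensembl identifiers, 55141 matched GENCODE M21, which gave symbols and exon lengths. No duplicate libraries were found. Groups came from the labels.

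In R 4.3.3, edgeR 4.0.16 was run with TMM, filterByExpr (minimum count 10), robust two-sided quasi-likelihood tests and Benjamini-Hochberg adjustment over all genes, at 0.05. PBMT was compared with control within a state (12 mice), and states in a 4-group fit of 24 mice. CPM used TMM over all mice, and log2 CPM a prior count of 2. Alternatives were DESeq2 1.42.0, DESeq2 size factors, no filter, a replicate block, other samples in the fit and leaving out each mouse; those for marker sums and totals were chosen after seeing the data. Tested on simulated data, false calls exceeded the nominal share, more so with DESeq2, and the accepted limit for DESeq2 was widened after that was seen.

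The members and lists were chosen with earlier results of these data known. The result of 1 marker list is not reported. Named were the 10 genes, up to 5 called genes per HIF list and direction (largest log2 fold change) or else the smallest p, the 5 most abundant, and the 5 highest and lowest r. Egr1, Nfil3, Myh7, Epo, Car12 and Aldoc were named after their values were seen.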

Additional observations from a re-analysis of the deposited data

Results flagged for a closer look

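Of 84 groups of 6 mice checked, 12 had a single mouse far from the others; chance gives about 1 in 20. Sedentary control replicate 4 was low in Epas1 (213 CPM, others 252 to 267) and Bnip3 (152 CPM, others 187 to 199), high in summed myofiber markers (161512 CPM, others 113579 to 123416) and far from its group mean (0.501, others 0.304 to 0.339). Epas1 was low in sedentary PBMT replicate 6 (153 CPM, others 237 to 284). Vhl was high in replicate 5 of fatigued controls (5.77 CPM, others 3.64 to 4.39) and of fatigued PBMT mice (6.40 CPM, others 3.93 to 4.69). Bnip3 was high in fatigued PBMT replicate 1 (236 CPM, others 162 to 189). Summed fibroblast markers were high in fatigued PBMT replicate 5 (3108 CPM, others 833 to 1557). Summed keratinocyte markers were high in sedentary control replicate 3 (5.59 CPM), sedentary PBMT replicate 4 (27.9 CPM) and fatigued control replicate 2 (4.43 CPM).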

How the results depend on the processing

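Genes called with PBMT in sedentary muscle numbered 62 with DESeq2, 16 with no filter, 1 with all 24 mice in the fit, 11 with a replicate block and 2 to 20 with 1 mouse left out. The count was 20 without sedentary PBMT replicate 5, 18 without sedentary control replicate 4, 10 without sedentary PBMT replicate 2, 7 without replicate 4, and 2 without sedentary control replicate 1, 2 or 6. In fatigued muscle DESeq2 called 2 and the block 1. The difference between states had 3 with DESeq2 and 1 to 3 with a mouse left out (3 without sedentary PBMT replicate 2). HIF list genes called with PBMT in sedentary muscle were 1 with DESeq2, 1 with no filter and 0 to 1 with a mouse left out. Between states, members called were 1 with DESeq2 in controls, 0 to 1 there and 1 to 3 in PBMT mice with a mouse left out. Log2 fold changes near 0 changed sign between states in controls: Cited4 was -0.024 with the block, and with DESeq2, its size factors, no filter and 12 mice Hif1a was 0.0055, 0.0055, 0.017 and 0.0068 and Bnip3 0.00023, 0.00025, 0.012 and 0.0015. With a mouse left out, ranges that crossed 0 were -0.23 to 0.20 (Cited4), -0.11 to 0.070 (Hif1a) and -0.060 to 0.031 (Bnip3) in controls, -0.076 to 0.053 (Hif1a), -0.15 to 0.0044 (Epas1) and -0.020 to 0.084 (Bnip3) in PBMT mice, and, for PBMT in fatigued muscle, -0.058 to 0.062 (Epas1), -0.41 to 0.013 (Hif3a), -0.059 to 0.16 (Vhl) and -0.031 to 0.080 (Bnip3). Marker sums that did so were endothelial (-0.086 to 0.042), erythroid (-0.20 to 0.11) and adipocyte (-0.28 to 0.14) in sedentary muscle, and myofiber (-0.061 to 0.0053), endothelial (-0.018 to 0.071), macrophage (-0.19 to 0.22), fibroblast (-0.094 to 0.39), erythroid (-0.13 to 0.17) and adipocyte (-0.12 to 0.67) in fatigued muscle. The cause was not tested. Of the other values of log2 fold changes, 517 under other settings and 2209 with a mouse left out kept direction and side of the threshold, 17 and 87 fell short of it, and 3 and 5 newly passed. With the block Adm between states (adjusted p = 0.0621 in controls, 0.0593 in PBMT mice) and Pdk1 in PBMT mice (0.0503) fell short of the threshold. Replicate numbers were not taken to pair mice, since not every pair correlated over 0.1: after removing group means, 4 of 6 pairs correlated over 0.1 in fatigued and 0 of 6 in sedentary muscle, and 3 and 0 mice correlated best with their own number. Hif3a and Ankrd37 are limited by low counts.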
